A study of Arabidopsis thaliana with 36 samples.

Results

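The genes described here lie in the same stretch of the small single copy region of the Arabidopsis thaliana chloroplast genome: ndhD, psaC, ndhE, ndhG, ndhI, ndhA and rps15. They were chosen by name and annotated position, not by their values, and are 7 of the 113 plastid genes with a value in the series. After crosslinking with formaldehyde, protein-bound DNA of chloroplast preparations was immunoprecipitated (ptChIP) and sequenced beside unselected DNA (input). For leaves, chloroplasts of rosettes of 14-day-old wild-type Col0 plants on soil were fixed after isolation. The plants had spent 24 h in darkness (Night) or 2 h in the light (Day), and the labels name an antibody to RpoB. For seedlings, pools of 4-day-old plants (4 to 5 days in the protocol) from plates in continuous light were fixed before homogenization, of the lines sig2-2, chl27 and chlm and of the line Col0. Their labels name no antibody and give the genotype entry of every line as wild type, so the lines rest on the titles and the cell line entries. Each of the 6 plant groups had 3 ChIP and 3 input libraries, 36 in all. The labels do not say that replicates were separate sets of plants, so p-values measure the spread between these samples, which may be technical.

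RpoB belongs to the core of PEP, the RNA polymerase encoded by the plastid itself, which reads most photosynthesis genes of the chloroplast with the help of nucleus-encoded sigma factors. SIG2 is such a sigma factor. CHLM and CHL27 are enzymes of successive steps of chlorophyll synthesis. The ndh genes encode subunits of the chloroplast NDH complex, which passes electrons from ferredoxin to plastoquinone in cyclic electron flow around photosystem I: NdhA, NdhD, NdhE and NdhG sit in its membrane part, and NdhI carries iron-sulfur clusters in the arm that joins the membrane part. PsaC carries the terminal iron-sulfur clusters of photosystem I, from which electrons reach ferredoxin. Rps15 is a protein of the small subunit of the chloroplast ribosome. In Arabidopsis the ndh genes and psaC are transcribed together, in the direction that ends with ndhD, and ndhA holds an intron.

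On the plastid chromosome (Pltd, RefSeq table of TAIR10.1), ndhD (ArthCp074) spans positions 115665 to 117167, psaC (ArthCp075) 117318 to 117563, ndhE (ArthCp076) 117804 to 118109, ndhG (ArthCp077) 118377 to 118907, ndhI (ArthCp078) 119244 to 119762, ndhA (ArthCp079) 119847 to 122009 and rps15 (ArthCp081) 123296 to 123562. They cover a stretch of 7898 bp, in which 1286 bp between ndhA and rps15 were not analysed here, flanked by ccsA beside ndhD and by ycf1 beside rps15, and none has a copy in the inverted repeats. The table gives whole gene spans, without strand and without the exons of ndhA.

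Mean coverage of the plastid genome ran from 102 to 480 in Night ChIP libraries, 425 to 1039 in Day ChIP libraries, 1017 to 1395 in leaf inputs and 1132 to 3165 in seedling libraries, and Night ChIP replicate 1 was the shallowest. Values are log2 ratios of ChIP to input after each library was scaled to its plastid total, so 0 is the plastid average, and since shares add up to a fixed total, a larger share at some genes means a smaller share elsewhere. The members lay close to the plastid average in the inputs, with means from 0.938 to 1.06 times that average in leaves and from 1.02 to 1.21 times in seedlings. No input differed between Night and Day, or between a line and Col0, at any of the 113 genes (limma, threshold of 0.05 on the adjusted p, 0% called); at an unadjusted p under 0.05 there was 1 gene in Night against Day and 0 in the lines. The members' inputs nevertheless stood low among all genes in the lines relative to Col0. The sig2-2 inputs had a median difference of -0.12 over the members (0.01 over all genes). For chl27 it was -0.09 (-0.0014 over all genes), and chlm also had -0.09 (-0.0019). Counted from the highest of 113 genes, they held ranks 103 to 113 in sig2-2, 95 to 113 in chl27 and 84 to 106 in chlm. Low input was not particular to the members, since both flanking genes shared it. On the same count ccsA ranked 97 for the sig2-2 inputs, 105 for those of chl27 and 107 for those of chlm. The ranks of ycf1 were 96, 112 and 108, with the lines taken in that order.

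All 7 members took less of the ChIP coverage than of the input coverage in each of the 6 plant groups. With limma and adjustment over 113 genes, 7 of 7 were lower in Night, where 53.1% of all genes were lower, and 7 of 7 in Day, where 59.3% were. The same held for 7 of 7 in sig2-2 (51.3% of all genes), chl27 (54%), chlm (56.6%) and Col0 (55.8%). When each library was centred on its median gene, 3 of these values lay just above 0: ndhE in sig2-2 (0.015), ndhE in chl27 (0.015) and ndhA in sig2-2 (0.0049). ndhE was then not called in chlm and Col0 either, and scaling outside the inverted repeats ended the calls of ndhE and ndhA in sig2-2 (-0.069 and -0.079). At Night, centring left 4 of 7 members called lower, with ndhD, ndhI and ndhA no longer called. The split of all called genes on centring was 51 higher and 47 lower in Night, in place of 40 and 60, and 53 and 51 in Day, in place of 38 and 67. For sig2-2 it became 46 higher and 44 lower, in place of 36 and 58. The chl27 split turned to 53 higher and 52 lower (40 and 61 before), that of chlm to 55 higher and 51 lower (39 and 64) and that of Col0 to 55 higher and 53 lower (41 and 63). Over single libraries, 126 of 126 values of a member were below 0. The median of all genes was also below 0 in every library, from -1.10 in Day replicate 3 to -0.14 in sig2-2 replicate 3. The replicates of a group share its mean input, so these values are not independent. The median of the 7 members was -0.80 in Night against a median of all genes of -0.35, and -1.99 in Day against -0.85.

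rps15 had the lowest mean of the members in Day, sig2-2, chl27 and Col0, and in Night and chlm psaC was lower by less than the replicates' spread. The ChIP coverage of rps15 was 0.535, 0.439 and 0.543 times the plastid average in the Night replicates, and 0.151, 0.150 and 0.0959 times in the Day replicates. The log2 ChIP to input value was -1.03 in Night (SE 0.16, adjusted p = 3.20e-07 with limma) and -2.90 in Day (SE 0.16, adjusted p = 5.44e-18). All Day values lay below all Night values. In seedlings rps15 was at -0.51 in sig2-2, -0.90 in chl27, -1.23 in chlm and -1.38 in Col0. It was the lowest member in 13 of the 18 ChIP libraries.

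psaC stood beside rps15 at the low end. Its ChIP coverage was 0.567, 0.457 and 0.533 times the plastid average in Night, and 0.224, 0.209 and 0.189 times in Day. Its log2 ChIP to input value was -1.04 in Night (SE 0.13, limma adjusted p = 5.58e-09) and -2.33 in Day (SE 0.13, adjusted p = 5.44e-18). Among seedlings it reached -0.43 in sig2-2, -0.80 in chl27, -1.27 in chlm and -1.31 in Col0. psaC was the lowest member in 4 libraries, and it shared the 2 lowest places with rps15 in 15 of 18.

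Among the NDH subunit genes, ndhD was the least depleted in Day and ndhE in the 4 seedling groups. In Night ndhA was the least depleted of the 5 (-0.41) and ndhE the most (-0.81), and in sig2-2 ndhD was the most (-0.39) and ndhA stood just under ndhE (-0.19). In seedlings ndhE averaged -0.18 in sig2-2 (SD 0.05, n = 3), -0.36 in chl27 (SD 0.09), -0.60 in chlm (SD 0.14) and -0.60 in Col0 (SD 0.16), and it was the highest member in 11 of 18 libraries. In Day leaves ndhD was highest in every replicate, with -1.28, -1.11 and -1.44 against -1.46, -1.34 and -1.63 for ndhE. ndhD averaged -0.47 in Night and -1.28 in Day (limma adjusted p = 0.000431 and 2.95e-12). In seedlings it was at -0.39 in sig2-2, -0.63 in chl27, -0.97 in chlm and -0.97 in Col0. ndhA, the longest member with 2163 bp, was highest in the other 2 libraries.

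ndhG, ndhI and ndhA, which lie side by side, followed each other. In Day leaves they averaged -2.10, -1.99 and -1.91, and in Night leaves -0.80, -0.52 and -0.41. In seedlings ndhG was at -0.36 in sig2-2, -0.60 in chl27, -0.997 in chlm and -1.06 in Col0, and ndhI at -0.32, -0.63, -1.01 and -1.14 in the same order of lines. ndhA had -0.19, -0.59, -0.89 and -0.98. Of all pairs of members, ndhI and ndhA were closest over the 18 ChIP libraries, with a root mean square difference of 0.136 on the log2 scale, and ndhE and rps15 were farthest apart with 0.776. Genes elsewhere in the genome came about as near: ndhI lay 0.126 from petA, ndhG 0.143 from ycf3 and ndhA 0.153 from petA. Likeness of this size was thus not particular to neighbours in the operon. These distances describe levels and were not tested.

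**Figure D1:**
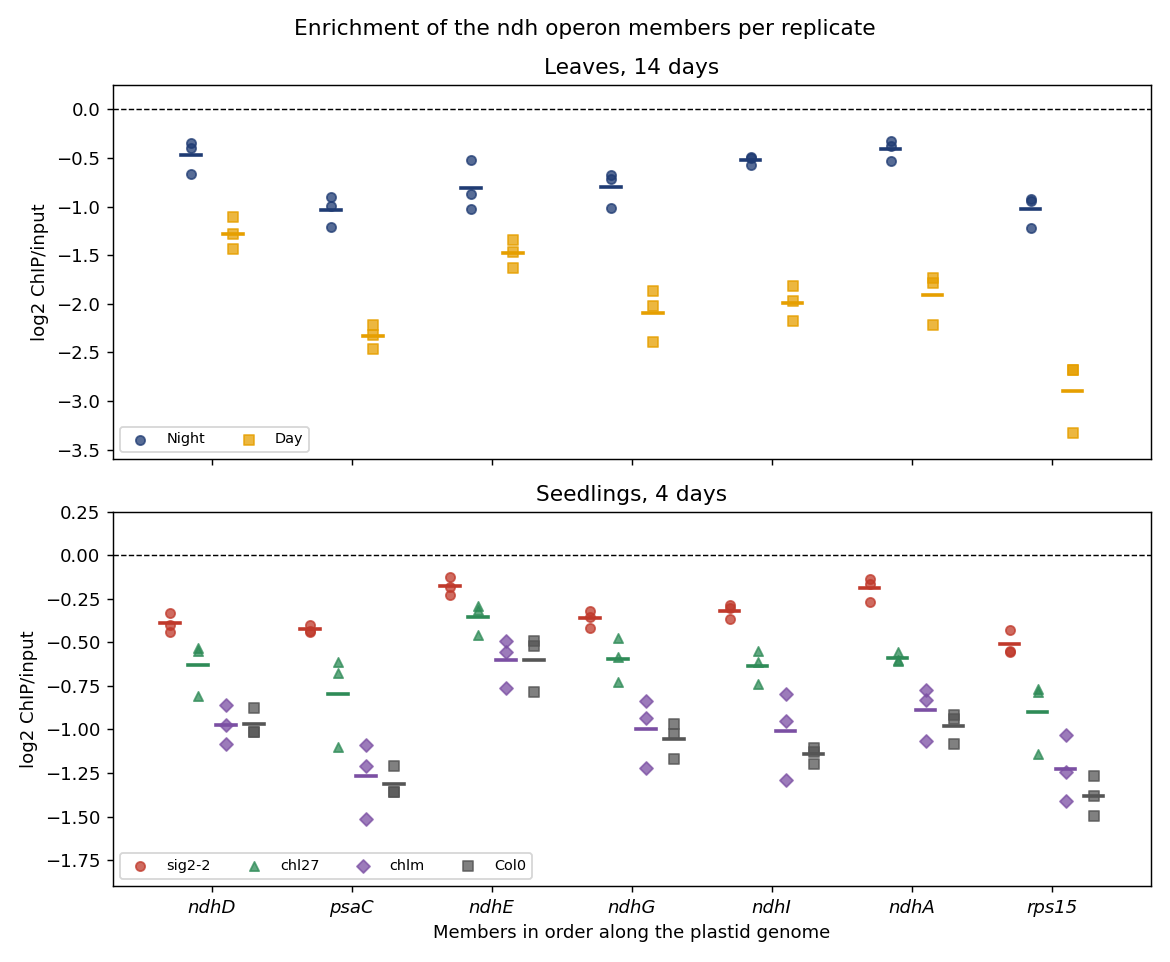
Log2 ChIP to input of each member, in order along the genome, for leaves (upper panel: Night, Day) and seedlings (lower panel: sig2-2, chl27, chlm, Col0). Points are replicates and bars are means of 3. All 126 points lie below 0, the plastid average, as does the median of all genes in every library. Night points lie above all Day points of the same member, and rps15 in Day has the lowest points of the plot.

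Ordered by level, few neighbouring members were apart by more than their replicates. In Day the order from low to high was rps15, psaC, ndhG, ndhI, ndhA, ndhE and ndhD. There, rps15 and psaC did not overlap (0.57 apart, SD 0.27 over 3 paired differences within libraries), nor did ndhA and ndhE (0.43, SD 0.14), while the other neighbours overlapped. In Night only ndhG and ndhI were separate (0.28, SD 0.14), and psaC and rps15 differed by 0.0094. In sig2-2 the break lay between ndhI and ndhA (0.13, SD 0.03), in chl27 and chlm between ndhA and ndhE (0.23 and 0.29), and in Col0 between psaC and ndhI (0.17) and between ndhD and ndhE (0.37).

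Read along the operon, the values did not change in 1 direction. psaC minus ndhD was -0.57 in Night (SD 0.31) and -1.05 in Day (SD 0.14), below 0 in every replicate. The same step was -0.04 in sig2-2 (SD 0.07), with 1 of 3 replicates above 0, and -0.34 in Col0 (SD 0.01), with none. ndhE minus psaC was 0.23 in Night (SD 0.31), with 2 of 3 replicates above 0, and 0.85 in Day (SD 0.11). In seedlings it was 0.25 in sig2-2 (SD 0.07), 0.44 in chl27 (SD 0.32), 0.67 in chlm (SD 0.08) and 0.71 in Col0 (SD 0.13). rps15 lay below ndhA in all 18 libraries, by a mean of 0.62 in Night and 0.99 in Day. The spread between the highest and the lowest member averaged 0.72 in Night (SD 0.14) and 1.62 in Day (SD 0.25). It was 0.34 in sig2-2 (SD 0.08), 0.54 in chl27 (SD 0.26), 0.68 in chlm (SD 0.08) and 0.78 in Col0 (SD 0.07).

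The leaf design compares darkness with light. All 7 members were higher relative to input in Night than in Day, a direction shared by 58.4% of all genes (limma, change in log2 ChIP to input between groups). rps15 rose most, by 1.87 (SE 0.22, adjusted p = 1.36e-08), followed by ndhA with 1.50 (SE 0.18), ndhI with 1.46 (SE 0.17), psaC with 1.30 (SE 0.18) and ndhG with 1.29 (SE 0.19). ndhD rose by 0.81 (SE 0.17, adjusted p = 6.77e-05) and ndhE by 0.67 (SE 0.18, adjusted p = 0.00157). Every Night replicate was above every Day replicate for 7 of 7 members, as for 59.3% of all genes. The median change was 1.30 over the members and 0.53 over all genes.

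The size of the Night difference depends on what each library is scaled to. Centring on the median gene moved the median of all genes by -0.55 and turned the split of called genes into 35 higher and 37 lower, in place of 66 and 14. Scaling to the plastid outside the inverted repeats gave 41 and 30. The members' median change was then 0.74 and 0.85. ndhG, ndhI, ndhA, psaC and rps15 stayed called under both scalings. ndhE was called under neither (0.12, adjusted p = 0.497; 0.23, adjusted p = 0.289), and ndhD lost its call on centring (0.26, adjusted p = 0.0635; limma). Night ChIP libraries were also the shallowest of the series; the part of depth in the result was not tested.

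The line sig2-2 carries the name of the sigma factor SIG2 and was compared with Col0. All 7 members were higher relative to input in sig2-2 than in Col0, against 53.1% of all genes. psaC rose by 0.89 (SE 0.13, limma adjusted p = 1.73e-07), to -0.43, -0.40 and -0.44 in the sig2-2 replicates against -1.36, -1.36 and -1.21 in the Col0 replicates. rps15 rose by 0.87 (SE 0.12), ndhI by 0.82 (SE 0.12), ndhA by 0.79 (SE 0.10) and ndhG by 0.69 (SE 0.12). The changes of ndhD and ndhE were 0.58 (SE 0.11) and 0.42 (SE 0.11, adjusted p = 0.000437). No sig2-2 replicate overlapped a Col0 replicate at any member, as for 56.6% of all genes in this direction. The members' median was 0.79, beside 0.36 over all genes. The input difference from Col0, which enters these changes, ran from -0.16 for psaC to -0.10 for rps15, none of them called.

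On centring, the median of all genes moved by -0.34, the split of calls from 60 higher and 38 lower to 50 and 50, and the members' median to 0.45. ndhE was then no longer called (0.08, adjusted p = 0.396 with limma), while the other 6 members kept their call. The level of ndhE and ndhA in sig2-2 itself is near the plastid average. Leaving out sig2-2 ChIP replicate 2 ended the call of both against input (-0.15 each, adjusted p = 0.0985 and 0.0832 with limma), and ndhE also lost it without sig2-2 ChIP replicate 3, input replicate 1 or input replicate 3 (adjusted p from 0.0583 to 0.0931).

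In chl27 the changes were smaller and 6 of 7 members were called higher than in Col0, beside 40.7% of all genes. psaC changed by 0.51 (SE 0.13, limma adjusted p = 0.00225), ndhI by 0.51 (SE 0.12), rps15 by 0.49 (SE 0.12), ndhG by 0.46 (SE 0.12), ndhA by 0.39 (SE 0.10) and ndhD by 0.34 (SE 0.11). ndhE had 0.24 (SE 0.11, adjusted p = 0.0519) and was not called, although every chl27 replicate of all 7 members was above every Col0 replicate, as for 40.7% of all genes. The members' median was 0.46, against 0.16 over all genes. Centring gave 35 higher and 28 lower calls in place of 46 and 15, scaling outside the repeats 35 and 25, and the members' median was 0.30 and 0.35.

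The inputs enter these changes too, and their difference from Col0 ran from -0.14 for rps15 to -0.06 for ndhE, none of them called. ndhE gained its call when chl27 ChIP replicate 3, Col0 ChIP replicate 1 or Col0 ChIP replicate 3 was left out (adjusted p from 0.0240 to 0.0383 with limma). The other chl27 calls held when any 1 of the 12 libraries was left out, with 6 to 7 members and 42 to 86 of all genes called. Some ended when 1 replicate of every group compared was left out. Without replicate 2 of every group compared, 0 of 113 genes and 0 members were called (limma, members' adjusted p from 0.110 upward), with ndhI at 0.40 and psaC at 0.39. Without replicate 3, 17 genes were called and ndhD was not (0.35, adjusted p = 0.0544). chl27 replicate 1 was the lowest of the line for psaC, at -1.10 against -0.68 and -0.61, and for rps15, at -1.14 against -0.77 and -0.79.

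chlm was not shown to differ from Col0 at any member. 0 of 113 genes were called (0%, limma), and 8 genes had an unadjusted p under 0.05. The changes ran from -0.0048 for ndhE to 0.16 for rps15 (SE 0.12, adjusted p = 0.978). For psaC the difference was 0.04, and an interval of 2 SE reached from -0.22 to 0.31. For ndhA it was 0.09, from -0.11 to 0.29. The chlm and Col0 replicates overlapped at the members. Of 113 genes, 3 (2.65%) had every chlm replicate above every Col0 replicate, and 10 had every chlm replicate below. The sig2-2, chl27 and chlm comparisons share the Col0 libraries and are not independent of each other.

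**Figure D2:**
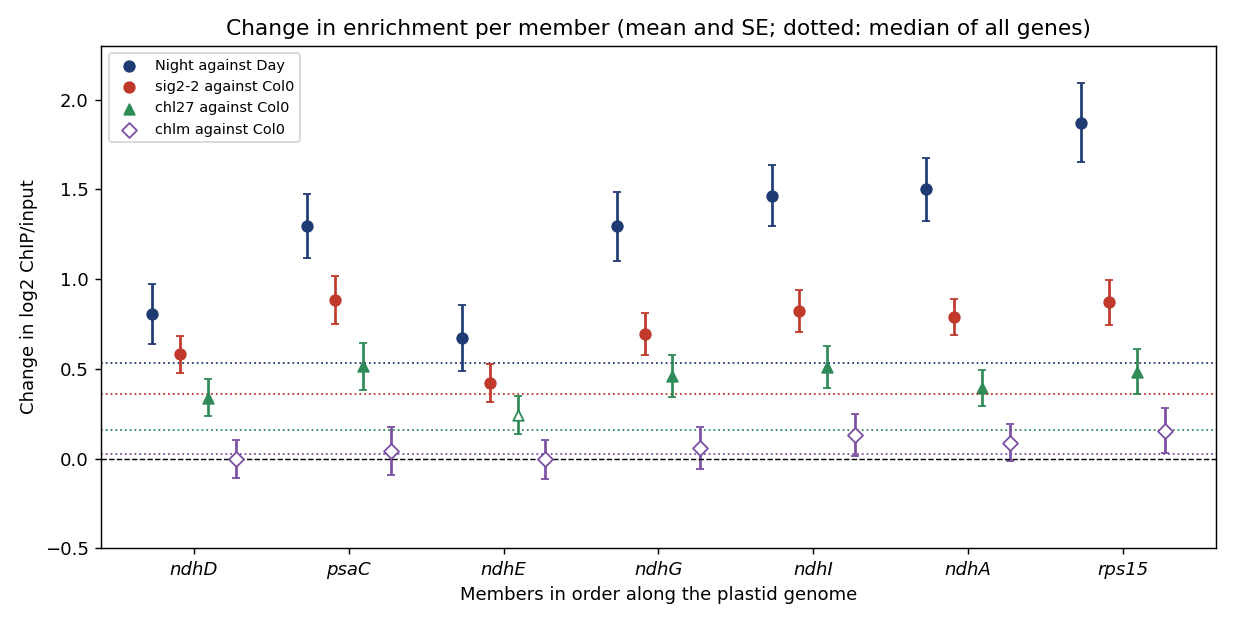
Change in log2 ChIP to input of each member in Night against Day and in sig2-2, chl27 and chlm against Col0. Points are estimates with their SE, filled where limma's adjusted p was under 0.05, and dotted lines are the medians over 113 genes. The Night points range from 0.67 for ndhE to 1.87 for rps15, and ndhE has the lowest filled point of sig2-2 and an open point in chl27, which was called without chl27 ChIP replicate 3, Col0 ChIP replicate 1 or Col0 ChIP replicate 3. Of the filled points, centring ended the calls of ndhD and ndhE in Night and of ndhE in sig2-2.

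Windows of 100 bp showed that depletion along the operon was broken by a few narrow sites. Of 71 windows outside the stretch between ndhA and rps15, 58 were lower than input in Night, 69 in Day, 63 in sig2-2, 70 in chl27, 70 in chlm and 70 in Col0 (limma over 1544 windows). Genome-wide, lower windows made up 64.7%, 68.9%, 62.8%, 69.3%, 70.3% and 70.1% in the same groups. Windows above input were 4 in Night (24.9% genome-wide), 0 in Day (22.6%), 2 in sig2-2 (21%), 1 in chl27 (25%), 1 in chlm (25.7%) and 0 in Col0 (24.7%). The highest window had an adjusted p of 0.0505 in Day and 0.0848 in Col0 (limma). Windows above input fell in the end of ndhD that faces psaC, inside ndhA, and in the end of ndhA that faces rps15. The sites named next, the window of greatest mean local height in ndhD, ndhE and ndhA and the last whole window of ndhA, were picked after their values were seen.

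The highest of the 71 windows lay at positions 121901 to 122000, 9 bp from the end of ndhA that faces rps15. The coding sequence of ndhA begins at that end. This window borders on the stretch that is not reported, whose windows were not ranked. Its log2 ChIP to input value was 1.93, 2.02 and 1.05 in the Night replicates, and -0.22, -0.30 and -0.89 in the Day replicates. It was 0.78 in sig2-2 (SD 0.13), 0.53 in chl27 (SD 0.33), 0.42 in chlm (SD 0.21) and 0.18 in Col0 (SD 0.10). Without chl27 ChIP replicate 1 the chl27 value was 0.34. This window was the highest of the 71 in 15 of 18 libraries, all but those of Day. Its change in Night against Day was 2.14 (SE 0.28, limma adjusted p = 1.84e-05), the highest of the 71 windows. In the same comparison 65 of 71 windows were higher (62.2% genome-wide), and 67 of 71 in chl27 against Col0 (53.4%).

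The other strong site lay at positions 117001 to 117100 in ndhD, 67 bp inside the end that faces psaC, where the coding sequence of ndhD begins. It held 0.80, 1.21 and 0.87 in Night, and 0.23, 0.38 and 0.12 in Day, where it was the highest of the 71 windows in 3 of 3 libraries. Seedling values were -0.23 in sig2-2, -0.16 in chl27, -0.34 in chlm and -0.27 in Col0. In sig2-2 this window changed least of the 71 relative to Col0 (0.04, SE 0.10, limma adjusted p = 0.711), while 70 of 71 windows were higher (68.6% genome-wide). It turned to -0.30 on centring (adjusted p = 0.00435), to -0.06 with scaling outside the repeats and to -0.0096 without Col0 ChIP replicate 2.

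Height above the surroundings shows the ndhD site without any effect of scaling. Local height is the window's log2 ChIP to input value minus the mean of the windows 300 bp to either side in the same library. At the ndhD site it was 1.95, 2.55 and 1.93 in Night, and 2.54, 2.68 and 2.80 in Day. In seedlings it was 0.38, 0.17 and 0.24 in sig2-2, 0.95, 0.54 and 0.51 in chl27, 0.95, 0.90 and 1.09 in chlm, and 1.05, 1.01 and 1.09 in Col0. The sig2-2 and chl27 replicates lay below all Col0 replicates, as at 17.6% and 11.5% of 1538 windows of the genome, and the chlm replicates overlapped them. The inputs had no such site, with local heights from -0.22 to 0.08. Because the sites were picked on these data, the differences in height were not tested.

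Inside ndhA, at positions 121101 to 121200, the order of the lines was another. The window held 0.64, 0.30 and 0.62 in sig2-2 and -0.56, -0.56 and -0.43 in Col0. Its change of 1.03 (SE 0.11, limma adjusted p = 1.67e-10) was the highest of the 71 windows in sig2-2 against Col0. Local height was 1.09, 0.85 and 1.04 in sig2-2, and 0.48, 0.72 and 0.61 in Col0, with every sig2-2 replicate higher, as at 21.1% of windows genome-wide. It averaged 0.41 in chl27, below Col0 in every replicate (11.5% of windows), and 0.37 in chlm, where the replicates overlapped those of Col0. In leaves the same window had a height of 1.62, 1.61 and 0.97 in Night, and 0.80, 0.89 and 0.96 in Day, with every Night replicate higher (13.1% of windows), and its level was 0.41 in Night and -1.17 in Day. The Night level lost its call without Night ChIP replicate 2 (0.30, limma adjusted p = 0.0543).

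A lower site inside ndhE, at positions 117901 to 118000, stood 0.71 above its surroundings in sig2-2 (SD 0.19), 0.74 in chl27 (SD 0.29), 0.83 in chlm (SD 0.14) and 1.16 in Col0 (SD 0.20). There the sig2-2 and chlm replicates lay below all Col0 replicates, as at 17.6% and 13.4% of windows, and chl27 overlapped Col0. The seedling inputs were uneven at this window too, with local heights from -0.10 to 0.05 in sig2-2 and -0.10 to 0.36 in chl27. In chlm they ran from 0.10 to 0.19 and in Col0 from -0.09 to 0.28. In leaves the height of this site was 0.40 in Night (SD 0.34) and 0.89 in Day (SD 0.43), and there the inputs themselves stood 0.35 to 0.99 above their surroundings. For the site at the end of ndhA, the height over the window 300 bp inside ndhA was 2.57 in Night (SD 0.76) and 1.58 in Day (SD 0.29). It was 0.92 in sig2-2 (SD 0.09), 1.15 in chl27 (SD 0.29), 1.42 in chlm (SD 0.07) and 1.18 in Col0 (SD 0.03). At this end of ndhA every sig2-2 replicate was below Col0 (20.6% of 1541 windows) and every chlm replicate above it (10.5%), while chl27 overlapped Col0 and Night overlapped Day. In sig2-2, height was below Col0 at 3 of the 4 sites and above it inside ndhA. The sites were picked on these data, so this count was not tested. The spread between the members was also smaller in sig2-2 than in Col0 (0.34 against 0.78). Over all 113 genes, the log2 ChIP to input estimates ran from -0.72 to 1.64 in sig2-2 and from -1.97 to 2.67 in Col0. The narrower range in sig2-2 was thus not particular to the members.

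**Figure D3:**
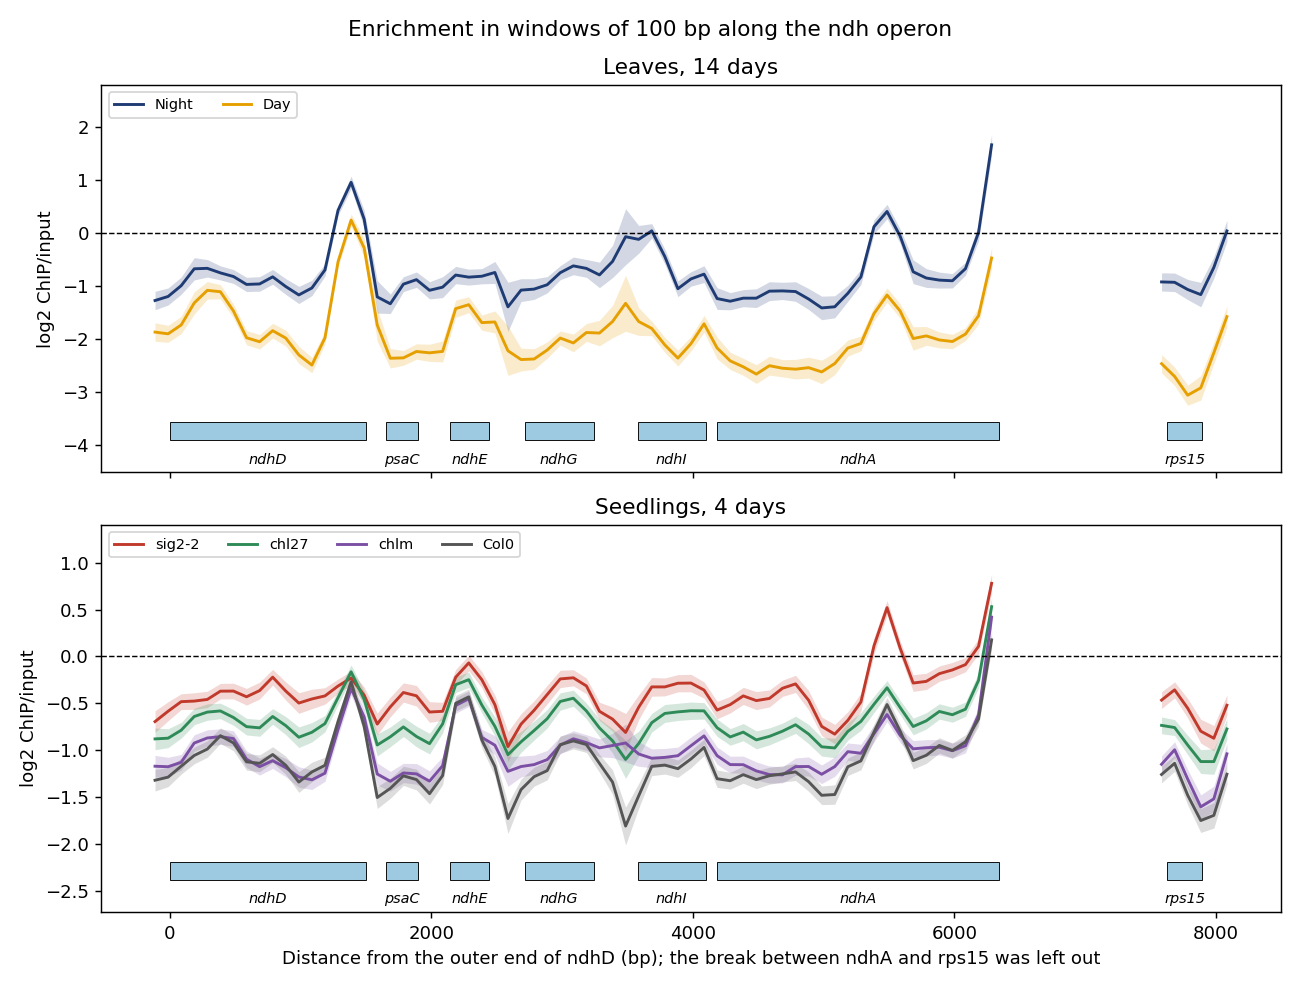
Log2 ChIP to input in 100 bp windows against the distance in bp from the outer end of ndhD, for leaves (Night, Day) and seedlings (sig2-2, chl27, chlm, Col0). Lines are means of 3 replicates, bands are SE and boxes are the members. Peaks stand at the end of ndhD facing psaC, inside ndhA and at the end of ndhA facing rps15, next to the break in the lines. The sig2-2 line has a peak of 0.52 inside ndhA and its ndhD window is at -0.23.

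**Figure D4:**
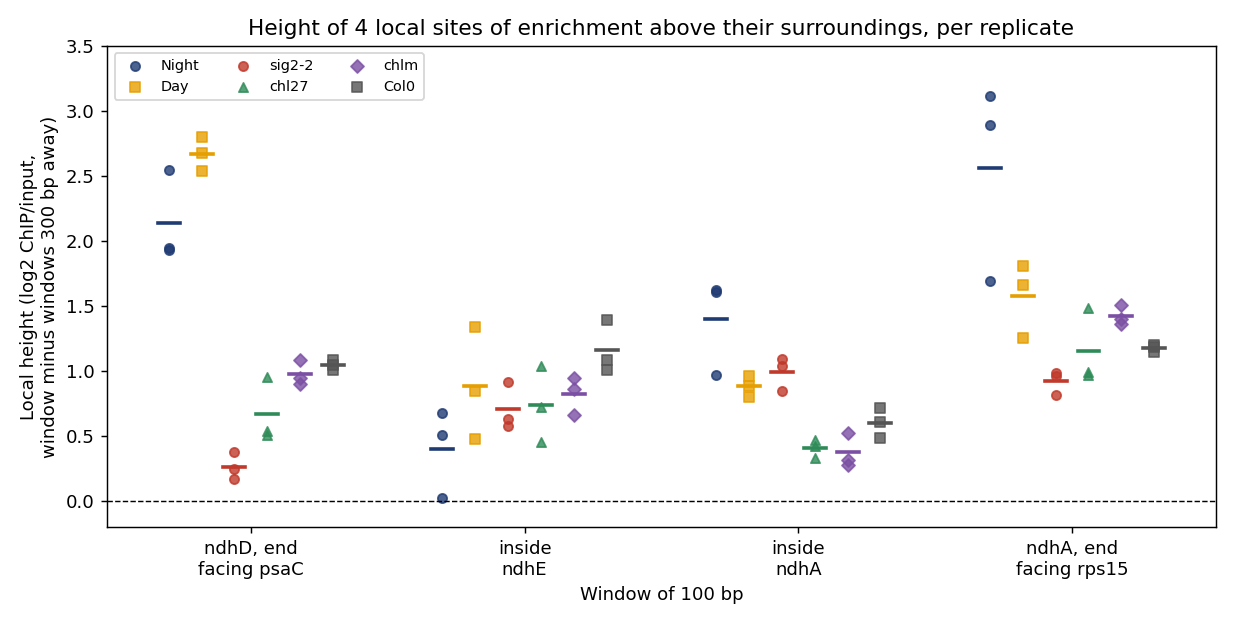
Local height, the log2 ChIP to input value of a 100 bp window minus that of windows 300 bp away, at 4 sites in each replicate of Night, Day, sig2-2, chl27, chlm and Col0. Bars are means of 3; the site at the end of ndhA has a window on 1 side only. At the ndhD site the leaf points lie between 1.93 and 2.80, and the sig2-2 points between 0.17 and 0.38, below the Col0 points.

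The spaces between the genes were also below input on average in all 6 groups. In sig2-2 they averaged from -0.74 between ndhE and ndhG to -0.50 between ndhI and ndhA, and in Col0 from -1.44 to -1.15 between the same pairs. In Night the space between ndhG and ndhI was at -0.50 with an SD of 0.58, and the window at positions 119101 to 119200 had the highest SE of the 71, 0.53. The space between rps15 and ycf1 was at -0.24 in Night (SD 0.36) and -1.82 in Day (SD 0.50).

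Other genes of the same complexes were set beside the members. Of 5 plastid ndh genes elsewhere in the genome, ndhB, ndhC, ndhF, ndhJ and ndhK, 3 were lower than input in Night (53.1% of all genes). In Night 1 was higher (ndhC, 0.25, as were 35.4% of all genes), and all 5 were lower in Day (59.3%). Their enrichment ran from -1.16 for ndhB to 0.25 in Night, and from -2.81 for ndhB to -0.37 for ndhJ in Day. All 5 rose in Night against Day (58.4% of all genes), with a median of 1.06. In sig2-2 against Col0, 2 of the 5 rose (53.1% of all genes) and 1 fell (ndhC, -0.34, limma adjusted p = 0.00329, as did 33.6% of all genes). The median of the 5 was 0.09, where the operon members had 7 of 7 higher and a median of 0.79. The difference between the lists was not tested. In chl27, 2 of the 5 rose (40.7% of all genes), with ndhB highest at 0.63, and in chlm none passed (0 genes called in all).

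Among the other photosystem I genes, psaA, psaB, psaI and psaJ, only psaI rose in Night against Day, by 1.16 (58.4% of all genes rose). The lowest was psaB with -0.27 (not called). In sig2-2, 3 of 4 rose (53.1% of all genes), with psaI at 0.65, and psaJ had 0.10 (not called). In chl27 psaI alone rose, by 0.28 (40.7% of all genes rose). The psaC changes of 1.30, 0.89 and 0.51 in the same comparisons stood above the highest of these 4 genes each time, a difference that was not tested. psaB is cotranscribed with psaA, and both encode the reaction centre proteins.

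Of the other 11 small ribosomal subunit genes, 10 rose in Night (58.4% of all genes), 10 in sig2-2 (53.1%) and 9 in chl27 (40.7%), beside rps15. The highest were rps12 in Night (2.15) and rps7 in sig2-2 (1.35) and chl27 (0.73), and rps14 was lowest in each and not called. In Day, rps7 was the lowest of the 113 genes (-3.27), and rps15 had -2.90. The genes that flank the operon were also below input in the 6 groups. ycf1 rose in Night (1.24), sig2-2 (0.72) and chl27 (0.45), while ccsA had 0.39 in Night (adjusted p = 0.0658 with limma) and rose in sig2-2 (0.42) and chl27 (0.30).

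The genes outside the operon with the most similar levels over the 18 ChIP libraries were petA, which encodes cytochrome f, with a root mean square difference of 0.127 from the median of the members, ycf3 with 0.148 and atpF with 0.172. Taken member by member, ndhD was nearest to ndhF (0.122), psaC to atpI (0.0906), ndhE to cemA (0.155), ndhG to ycf3 (0.143), ndhI and ndhA to petA (0.126 and 0.153) and rps15 to rps2 (0.209). These are likenesses of level only.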

How the data were processed

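The authors deposited coverage of the plastid genome as whole numbers at 154477 positions, 1 column per library, in 1 leaf and 1 seedling table. Such values are a signal without a read count, so no counting interval applies, and error was taken from the replicates alone. The submitters' processing notes name Trim Galore 0.4.1, Bowtie2 2.2.8.9 and bedtools 2.25.0; the settings are not given in the sources used here. The build was TAIR10, per the submitters' processing notes, and gene spans came from RefSeq's TAIR10.1 table; the inverted repeats mirrored at the same sum of positions, within 2 bp.

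Mean coverage of a gene was divided by the library's plastid total, brought to a common total per kb, and log2 taken after adding 1. limma 3.58.1 (R 4.3.3; group means, eBayes with trend) was run on 113 genes, on 1544 windows of 100 bp, and on each table alone, with Benjamini-Hochberg adjustment and a threshold of 0.05. The script was tested on simulated data. Replicate numbers paired all 3 pairs (correlations over 0.1) for Day ChIP and input, sig2-2 ChIP and input, and sig2-2 and Col0 ChIP. Enrichment of a replicate is its ChIP value minus the mean input of its group. Python 3.11.15, numpy 2.4.6, pandas 2.3.3 and matplotlib 3.10.9 were used. All members are named in each comparison, beside the highest and lowest gene of 4 lists and the nearest genes by level. The members and lists were chosen with earlier results of these data known. The stretch between ndhA and rps15 is not reported here.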

Additional observations from a re-analysis of the deposited data

Results flagged for a closer look

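The changes below are flagged because enrichment over input differed between groups by the interaction contrast of limma, with an adjusted p under 0.05. In Night against Day they were 0.81 for ndhD, 1.30 for psaC, 0.67 for ndhE, 1.29 for ndhG, 1.46 for ndhI, 1.50 for ndhA and 1.87 for rps15. In sig2-2 against Col0 they were 0.58 for ndhD, 0.89 for psaC, 0.42 for ndhE, 0.69 for ndhG, 0.82 for ndhI, 0.79 for ndhA and 0.87 for rps15. In chl27 against Col0 they were 0.34 for ndhD, 0.51 for psaC, 0.46 for ndhG, 0.51 for ndhI, 0.39 for ndhA and 0.49 for rps15.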

How the results depend on the processing

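Of the members' changes in Night, sig2-2 and chl27, 529 values under other settings kept direction and call, 11 lost the call and 6 gained it; for enrichment over input, 820 kept both, 17 lost the call and 3 changed sign. Those 3 arose on centring each library on its median gene: ndhE in sig2-2 (0.015) and chl27 (0.015) and ndhA in sig2-2 (0.0049). Centring also left 4 members lower in Night. With the replicate block, the ndhE change in chl27 was called (0.24, adjusted p = 0.0411, limma), and no other call of a member changed.

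Restricting to genes of at least 200 bp lowered the number of genes called to 65 in Night, 65 in Day, 60 in sig2-2, 62 in chl27, 65 in chlm and 64 in Col0, and to 63 for the change in sig2-2. Fewer genes were tested and their number is not given here, so the shares cannot be compared with those over all genes. For the chlm change this restriction gave 1 gene, centring gave 1, scaling outside the repeats 3, and leaving out single libraries 0 to 1. In chl27, leaving out replicates gave 0 to 86 genes and 0 to 7 members. With windows of 200 bp, 1 of 35 operon windows was called higher in chl27 (2.86%), 0 in chlm and 2 in sig2-2 (5.71%). With windows of 100 bp the counts were 1, 1 and 2 of 71, where 25%, 25.7% and 21% of windows were higher genome-wide.

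The chlm changes are near 0 and changed sign under several settings: ndhD to 0.058 and ndhE to 0.056 on centring, psaC to -0.012 with scaling outside the repeats, ndhD to 0.0012 with a pseudocount of 500, and ndhD to 0.014 and ndhE to 0.015 with median coverage. Leaving out replicates, they ranged from -0.072 to 0.087 for ndhD, -0.16 to 0.14 for ndhE, -0.10 to 0.20 for psaC, -0.10 to 0.17 for ndhG, -0.030 to 0.27 for ndhI, -0.0098 to 0.20 for ndhA and -0.00051 to 0.26 for rps15. The ndhD window at 117001 changed in sig2-2 by -0.30 on centring, -0.057 outside the repeats, and -0.0096 to 0.12 without single libraries. The cause of these shifts was not tested. A split of ndhA into exons and intron and a search of promoters were not run, since no exon or sequence table was at hand.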
